A study of Mus musculus with 9 samples.

Results

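Interferon-stimulated genes are the genes that cells turn on when interferon binds its receptors. The 45 listed here were grouped by what their products do: transcription factors of the pathway, sensors of viral nucleic acid, the ISG15 system, antiviral effectors, large GTPases, the antigen-processing machinery and a few others. They were found by gene symbol among the probes of an Illumina expression BeadChip, which named 19057 genes in all. Of the 45 genes, 43 had at least 1 probe, and 35 were measured, meaning that a probe was above the chip's background (detection p under 0.05) on at least 2 of 6 arrays. No named probe was found for Ifi203 and Ifi44. The probes of Ifih1, Ifi204, Ifit1, Isg20, Oasl1, Mx1, Iigp1 and Xaf1 were above background on at most 1 of the 6 arrays, and those of Ifih1, Ifit1, Isg20 and Mx1 on none.

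The RNA came from mouse ovaries of strain C57BL/6 in 3 groups: recipients of transplanted spermatogonial stem cells, the germline stem cells of the testis (SSCTR), a premature ovarian failure model (POF), and wild-type controls (WT). How ovarian failure was brought about, whether the recipients had it before the transplant, and the age and number of the mice are not given in the sources used here, so the germ cells that a host ovary still held are not known from the labels. Each group had 3 deposited columns, but replicate 1 was computed from replicates 2 and 3, which leaves 2 arrays per group. Nothing in the labels says that these came from separate animals, and p-values measure the spread between these arrays only. Values are log2 intensities, in which 1 unit is a 2-fold difference; levels of different genes are not set against each other, because each probe has its own brightness.

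Type I interferons signal through the receptor chains Ifnar1 and Ifnar2 and the kinases Jak1 and Tyk2 to a complex that holds Stat2 and Irf9 and binds a promoter element called the ISRE. Interferon gamma signals through its own receptor to a promoter palindrome called the GAS and raises Irf1, a factor that in turn drives the immunoproteasome, the peptide transporter and the guanylate binding proteins. In the ovary, macrophages and other immune cells as well as the resident cells can carry this programme.

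Promoter sequences are shown for 6 members that passed a test below: Rsad2, Ifit3 and Gbp2 were lower and Bst2 was higher in SSCTR than in POF and hold ISRE-like letters, Irf1 holds GAS-like letters only, and Tap1 holds neither. The sequences are the bases before the transcript start in RefSeq (build GRCm38.p6), 5′ to 3′ on the gene's strand. Capitals mark matches on either strand to the core of the ISRE, written here as GAAA, any 2 bases and GAAA again, and to the GAS palindrome, TTCNNNGAA. In Bst2 the capitals run together, since 1 GAS-like match overlaps the first of 2 overlapping ISRE-like matches. The upstream stretch of Tap1 is 225 bases long because the gene Psmb9 begins on its other side, so the same stretch lies before both genes.
Rsad2, chr12:26456453-26456702, minus strand: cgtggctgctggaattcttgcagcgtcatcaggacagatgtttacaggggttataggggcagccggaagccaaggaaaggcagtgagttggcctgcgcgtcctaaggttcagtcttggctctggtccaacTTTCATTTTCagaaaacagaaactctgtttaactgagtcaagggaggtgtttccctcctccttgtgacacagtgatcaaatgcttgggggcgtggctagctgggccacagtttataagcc
Ifit3, chr19:34583279-34583528, plus strand: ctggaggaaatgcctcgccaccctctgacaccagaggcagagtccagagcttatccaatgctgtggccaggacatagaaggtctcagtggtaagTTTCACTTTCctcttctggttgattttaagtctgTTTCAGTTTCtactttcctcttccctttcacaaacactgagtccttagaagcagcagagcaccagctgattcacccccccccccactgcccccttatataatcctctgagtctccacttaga
Gbp2, chr3:142620413-142620662, plus strand: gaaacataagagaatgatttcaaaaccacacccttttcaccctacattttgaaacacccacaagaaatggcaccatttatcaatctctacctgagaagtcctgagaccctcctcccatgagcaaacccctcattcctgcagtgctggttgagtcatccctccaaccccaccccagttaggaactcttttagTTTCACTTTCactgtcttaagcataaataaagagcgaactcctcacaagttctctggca
Bst2, chr8:71537473-71537722, minus strand: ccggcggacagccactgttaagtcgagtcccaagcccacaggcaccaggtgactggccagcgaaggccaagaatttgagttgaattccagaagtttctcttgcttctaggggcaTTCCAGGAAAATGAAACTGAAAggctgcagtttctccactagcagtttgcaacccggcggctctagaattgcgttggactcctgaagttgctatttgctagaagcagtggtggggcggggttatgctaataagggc
Irf1, chr11:53769764-53770013, plus strand: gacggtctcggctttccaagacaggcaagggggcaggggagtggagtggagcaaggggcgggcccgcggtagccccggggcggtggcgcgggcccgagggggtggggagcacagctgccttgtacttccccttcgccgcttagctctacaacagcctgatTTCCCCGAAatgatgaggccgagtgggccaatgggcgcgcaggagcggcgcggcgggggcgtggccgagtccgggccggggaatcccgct
Tap1, chr17:34187331-34187555, plus strand: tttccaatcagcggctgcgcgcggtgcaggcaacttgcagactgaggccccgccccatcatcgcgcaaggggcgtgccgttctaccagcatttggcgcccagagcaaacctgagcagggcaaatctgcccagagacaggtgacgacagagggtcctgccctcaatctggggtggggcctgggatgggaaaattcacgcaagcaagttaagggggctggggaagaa

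Over the window from 250 bases before to 50 bases after the start, 17 of the 36 listed members with an entry held the ISRE-like letters (47.2%), against 3.99% of 27025 genes with such a window. The GAS-like letters stood in 12 of the 36 (33.3%), against 9.55% of all genes. Among the 35 measured members, 29 had a window, of which 14 held the ISRE-like and 11 the GAS-like letters. A match describes these letters and is not a binding site.

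**Figure D1:**
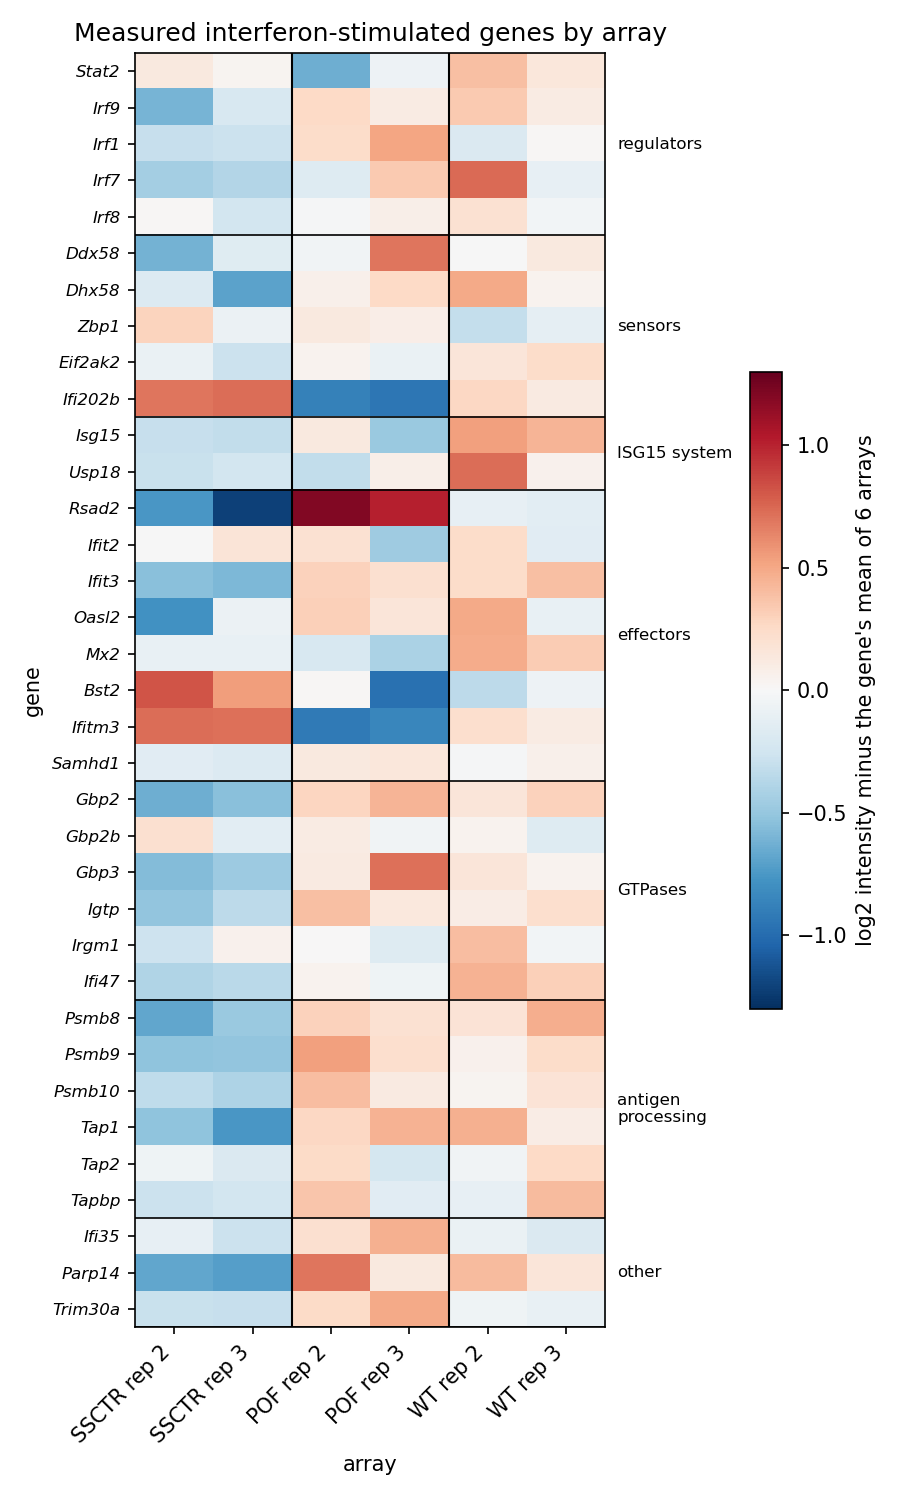
Heat map of the 35 measured members (rows, grouped by role) on the 6 arrays (columns), coloured by log2 intensity minus the gene's mean over the arrays. Both SSCTR arrays lie below the 4 others for 19 of the 35 genes, and above them for Ifi202b, Bst2 and Ifitm3. The 19 include Trim30a, which was measured only through the POF arrays.

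Few members separated ovaries of the failure model from wild-type ovaries. Rsad2 was higher in POF, and Ifi202b, Ifitm3 and Mx2 were lower. These 4 of 35 members (11.4%) passed a Benjamini-Hochberg adjusted p of 0.05 over all 13872 features in limma, a share close to that of all features, which was 11.9%. Of these features, 6.98% were higher in POF and 4.96% were lower. The median difference of the members was -0.05 on the log2 scale, against -0.03 over all features, with 16 members positive and 19 negative. The arrays of the 2 groups did not overlap for 6 members that were higher and 7 that were lower in POF, against 25.6% and 29.3% of all features. The median had no settled sign: it was 0.0376 without POF replicate 3 and 0.0676 without WT replicate 2. In these bulk samples, fewer cells of a type and less RNA per cell cannot be told apart.

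Rsad2 encodes viperin, an enzyme that makes a nucleotide analogue which stops viral RNA synthesis. It read 6.08 and 5.62 on the SSCTR arrays, 8.04 and 7.85 on the POF arrays, and 6.73 and 6.69 on the WT arrays. The POF arrays were the highest and the SSCTR arrays the lowest, with no overlap between any groups. In POF it was 2.35-fold higher than in WT (log2 1.24 ± 0.20, SE; adjusted p = 0.00563).

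Ifitm3 encodes a small membrane protein that blocks virus entry and is also a known marker of primordial germ cells in the mouse embryo. Its log2 intensity was 11.67 on both SSCTR arrays, 10.03 and 10.10 on the POF arrays, and 11.17 and 11.06 on the WT arrays. The order of the groups was thus the opposite of that of Rsad2. In POF it was 2.07-fold lower than in WT (log2 -1.05 ± 0.16; adjusted p = 0.00454).

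Ifi202b belongs to the HIN-200 family of DNA-binding proteins and restrains the DNA sensor Aim2. It read 5.86 and 5.90 on the SSCTR arrays, 4.29 and 4.23 on the POF arrays, where it was not above background on either, and 5.44 and 5.29 on the WT arrays. The POF level is therefore only an upper limit, and the gene was at least 1.56-fold lower in POF than in WT (adjusted p = 0.00376). Its second probe had the same order of groups, with 5.88 and 5.91 in SSCTR, 4.24 and 4.32 in POF, and 5.45 and 4.76 in WT.

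Mx2 encodes a dynamin-like GTPase with antiviral activity. It read 5.90 on both SSCTR arrays, 5.78 and 5.58 on the POF arrays, and 6.47 and 6.32 on the WT arrays. Both WT arrays were the highest, and the POF arrays were 1.65-fold lower than WT (log2 -0.72 ± 0.17; adjusted p = 0.0284). Without either POF array or either WT array this gene no longer passed.

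Of the 6 antigen-processing genes, none passed in POF against WT in limma, and none had an unadjusted p under 0.05. Their log2 differences ran from -0.09 for Tap2, a subunit of the peptide transporter, to 0.23 for Psmb9, a catalytic subunit of the immunoproteasome. None of the 6 measured GTPases passed either, and 1 had an unadjusted p under 0.05 (Ifi47, log2 -0.38 ± 0.17). Of the ISG15 system, Isg15, the ubiquitin-like modifier itself, stood at 7.42 and 6.81 in POF and at 7.82 and 7.73 in WT, a difference that did not pass (adjusted p = 0.0894). Stat2, the subunit specific to type I interferon signalling, differed by -0.62 ± 0.22 and did not pass (adjusted p = 0.109).

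**Figure D2:**
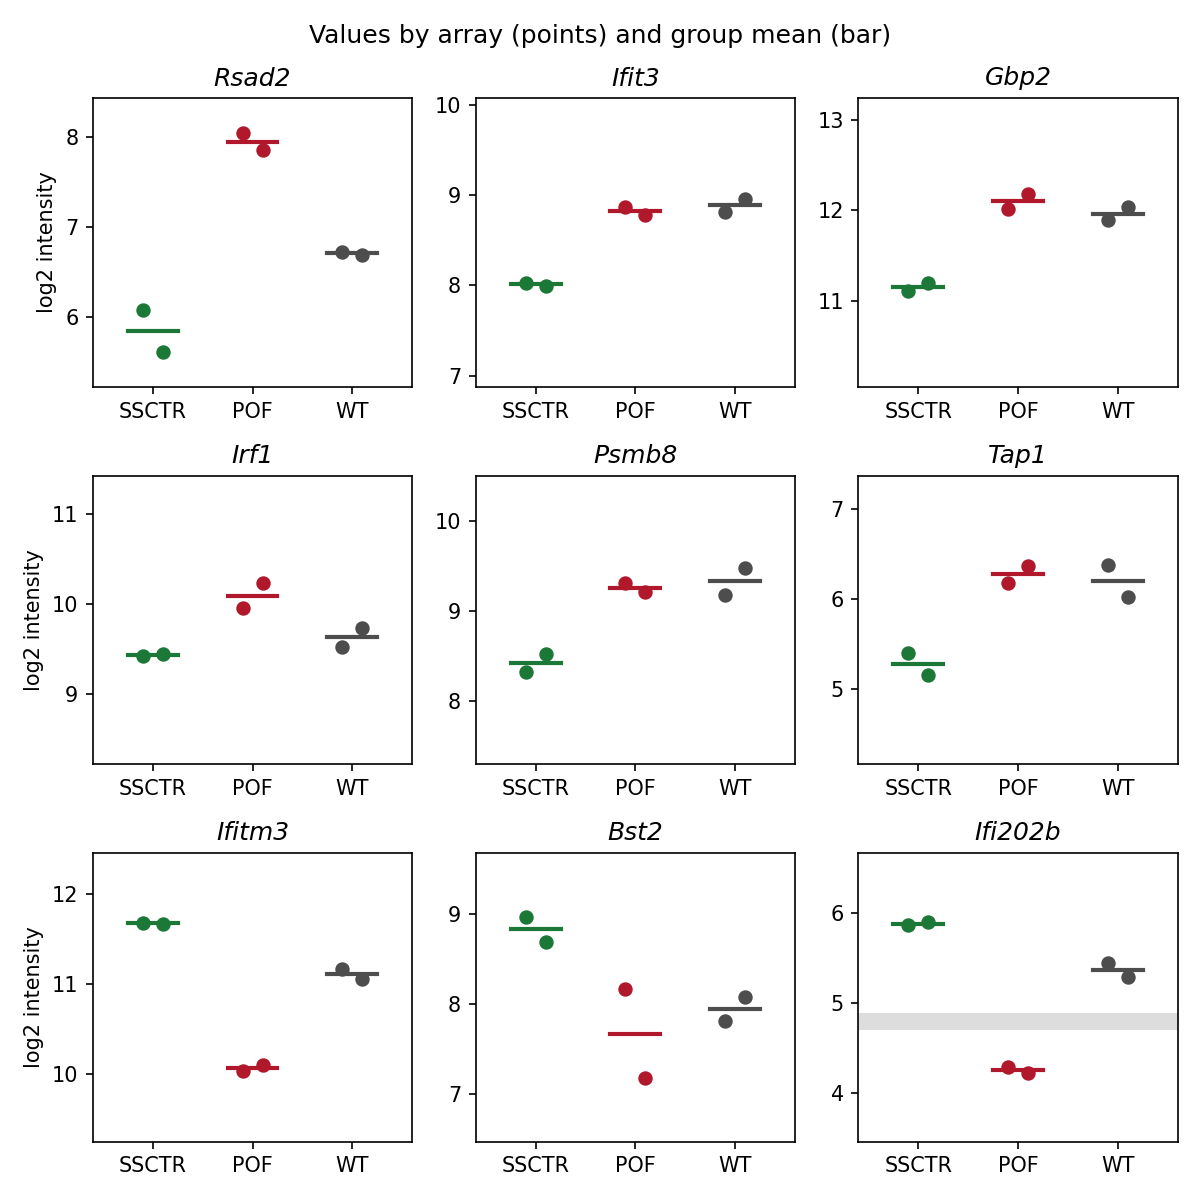
Log2 intensity on each array (points) with the group mean (bar) for 9 of the members that passed in at least 1 comparison, in the order SSCTR, POF and WT; every panel spans the same number of log2 units. The grey band in the Ifi202b panel marks the lowest detected signal over the arrays. Rsad2 is highest in POF, Ifitm3 and Ifi202b are lowest there, and Gbp2, Tap1, Psmb8 and Ifit3 are lowest in SSCTR with POF and WT side by side.

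More members set the recipients apart from the failure model. Rsad2, Ifit3, the GTPases Gbp2, Gbp3 and Igtp, the antigen-processing genes Tap1, Psmb8 and Psmb9, and Irf1, Parp14 and Trim30a were lower in SSCTR. Ifi202b, Ifitm3 and Bst2 were higher. Trim30a was measured only through the POF arrays, where it is high, so its call carries no support. With Trim30a still counted, that is 14 of 35 members (40%), against 12.6% of all features. Of these, 11 were lower (31.4%, against 7.25% of all features) and 3 were higher (8.57%, against 5.33%). The median of the members was -0.50 on the log2 scale, and -0.37 with dim genes at their bounds, against 0.03 over all features, and 28 of the 35 members were negative. The arrays did not overlap for 5 members that were higher and 21 that were lower in SSCTR (Trim30a among the 21), against 28.8% and 26.6% of all features. With 1 array left out fewer members passed, and fewer of all features passed as well. The median of the members then ran from -0.4987 (without either WT array) to -0.3439 (without SSCTR replicate 2). The median was -0.19 with the authors' normalized values and -0.17 without background correction, against -0.50 above.

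**Figure D3:**
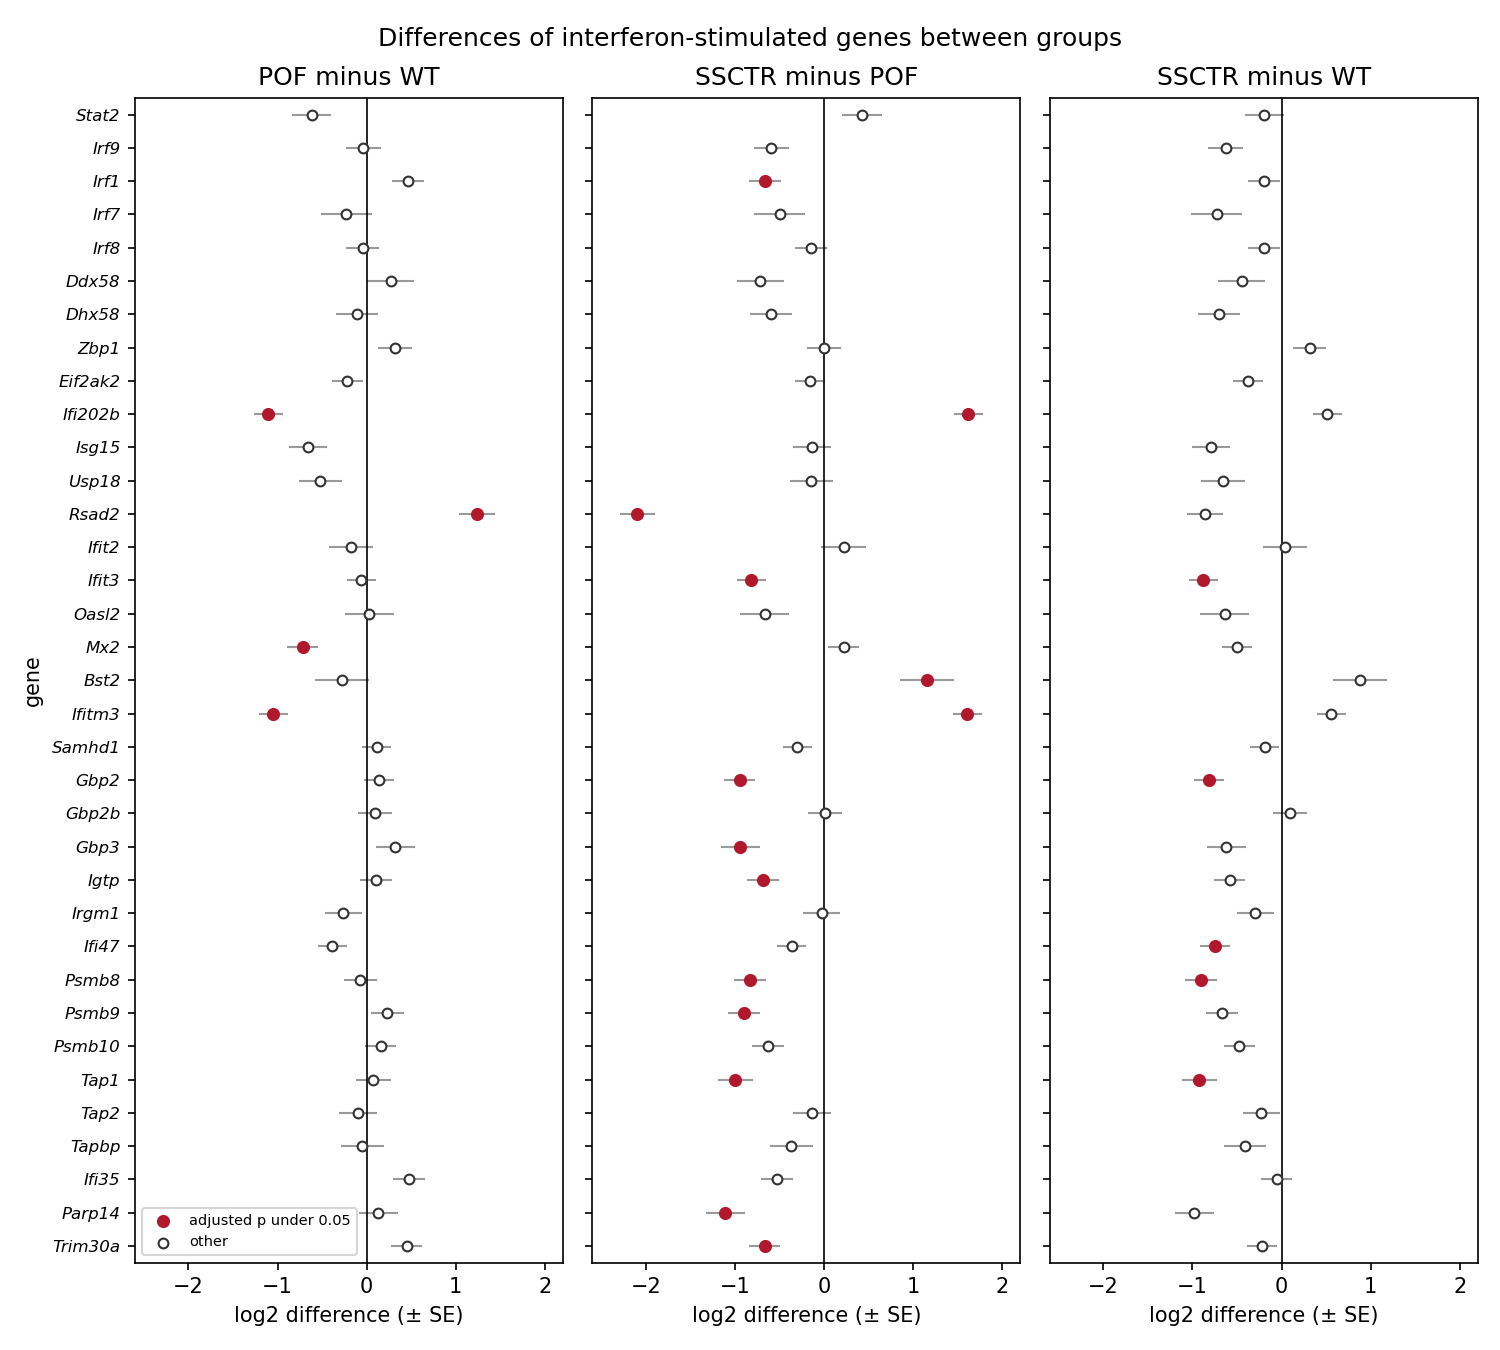
Log2 differences (points) with their SE (lines) of the 35 measured members in POF minus WT, SSCTR minus POF and SSCTR minus WT; filled red points have an adjusted p under 0.05. Most points of both SSCTR panels lie left of 0, with medians of -0.50 against POF and -0.47 against WT, while those of POF minus WT scatter about 0.

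Among the transcription factors, Irf1 passed. Its brightest probe read 9.42 and 9.44 in SSCTR, 9.96 and 10.23 in POF, and 9.53 and 9.73 in WT. SSCTR was 1.58-fold lower than POF (log2 -0.66 ± 0.18; adjusted p = 0.0436). The 4 Irf1 probes measured in every group were lower in SSCTR than in POF, by -0.66, -0.66, -1.28 and -1.33, and the 2 dimmer of them passed in a fit of all 19394 probes, to which every adjusted p of a dimmer probe refers. Those 2 were also higher in POF than in WT, by 0.85 and 0.76 (adjusted p = 0.0175 and 0.0294), where the brightest probe differed by 0.46 and did not pass, so whether Irf1 counts as higher in POF depends on the probe. The other Irf1 probe was above background on the POF arrays alone, at 4.85 and 5.05, and gives no test. Irf9, which carries the DNA-binding part of the type I complex, was lower by -0.59 ± 0.20 and did not pass (adjusted p = 0.0892), and its partner Stat2 was at 0.43 ± 0.22 (adjusted p = 0.257).

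Of the sensors, Ifi202b rose and the others did not pass. In SSCTR it exceeded the POF level at least 2.23-fold (adjusted p = 0.00043), and its second probe also passed. Eif2ak2, the kinase that halts translation on binding double-stranded RNA and the brightest probe of this group, differed by -0.16 ± 0.17. Dhx58, a helicase related to the RNA sensor RIG-I, read 6.25 and 5.73 in SSCTR, 6.49 and 6.68 in POF, and 6.92 and 6.47 in WT on its brightest probe, and its difference of -0.60 ± 0.23 did not pass. A dimmer Dhx58 probe was at least 2.56-fold lower in SSCTR than in POF (adjusted p = 0.00176), with 4.70 and 4.90 in SSCTR, 6.26 and 6.18 in POF, and 6.09 and 5.81 in WT. The same probe was at least 2.12-fold lower in SSCTR than in WT (adjusted p = 0.0162).

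The antiviral effectors moved both ways. Rsad2 was 4.27-fold lower in SSCTR than in POF (log2 -2.10 ± 0.20; adjusted p = 0.000305), the widest difference of any member in these comparisons. Ifit3, of a family of proteins that act on viral RNA, read 8.03 and 7.99 in SSCTR, 8.87 and 8.78 in POF, and 8.81 and 8.96 in WT. Here only SSCTR stood apart, 1.76-fold below POF (log2 -0.81 ± 0.17; adjusted p = 0.0136). A second Ifit3 probe, near background, differed by -0.10.

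In the other direction, Ifitm3 exceeded its POF level 3.04-fold in SSCTR (log2 1.61 ± 0.16; adjusted p = 0.000414). The neighbouring genes Ifitm1 (log2 -0.72 ± 0.20, adjusted p = 0.0501) and Ifitm2 (log2 -0.57 ± 0.17, adjusted p = 0.0655) did not share this rise and did not pass. Bst2 encodes tetherin, which holds budding virus particles at the cell surface. It read 8.97 and 8.69 in SSCTR, 8.16 and 7.18 in POF, and 7.81 and 8.08 in WT. Both SSCTR arrays were the highest, the POF arrays lay far apart from each other, and the difference of 1.16 ± 0.30 passed (adjusted p = 0.0386). Bst2 passed without POF replicate 2 but not without any of the other 5 arrays. Oasl2, an oligoadenylate synthetase-like protein, differed by -0.67 ± 0.28 on its brightest probe (adjusted p = 0.161), while a dimmer probe was lower by -0.95 ± 0.17 (adjusted p = 0.00927) and was also higher in POF than in WT (log2 0.81 ± 0.17; adjusted p = 0.0213).

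The large GTPases coat and rupture the vacuoles of intracellular pathogens. Gbp2 read 11.11 and 11.20 in SSCTR, 12.02 and 12.18 in POF, and 11.89 and 12.04 in WT, and was 1.93-fold lower in SSCTR than in POF (adjusted p = 0.00763). Gbp3 read 7.34 and 7.44 in SSCTR, 8.03 and 8.63 in POF, and 8.07 and 7.95 in WT, a difference of -0.94 ± 0.22 (adjusted p = 0.0245) that its second probe shared (log2 -0.99 ± 0.20; adjusted p = 0.0135). Igtp, also called Irgm3, read 8.21 and 8.38 in SSCTR, 9.11 and 8.85 in POF, and 8.81 and 8.94 in WT, a difference of -0.69 ± 0.18 (adjusted p = 0.0382).
In all 3 genes the SSCTR arrays lay below the 4 others and the POF arrays overlapped WT. Gbp2b, whose gene lies between those of Gbp3 and Gbp2, did not share this: it read 6.75 and 6.40 in SSCTR, 6.65 and 6.49 in POF, and 6.59 and 6.37 in WT. Irgm1, which restrains the other immunity-related GTPases, differed by -0.03 ± 0.21 on its brightest probe. Its second probe read 7.29 and 7.37 in SSCTR, 7.66 and 7.93 in POF, and 8.02 and 7.92 in WT, with SSCTR below the 4 others, and did not pass against POF (adjusted p = 0.156). The dimmer second probe of Gbp2, near background, differed by -0.20 and did not pass.

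The antigen-processing genes act in 1 line: the immunoproteasome cuts peptides, the Tap1 and Tap2 transporter moves them into the endoplasmic reticulum, and tapasin (Tapbp) helps load them onto MHC class I. Psmb9, Tap1, Psmb8 and Tap2 are direct neighbours in the genome. Tap1 read 5.40 and 5.16 in SSCTR, 6.18 and 6.37 in POF, and 6.38 and 6.02 in WT, which made it 2.00-fold lower in SSCTR than in POF (adjusted p = 0.0118; the SE of the log2 difference was 0.20). Psmb9 read 5.82 and 5.84 in SSCTR, 6.88 and 6.57 in POF, and 6.40 and 6.58 in WT (log2 -0.90 ± 0.18; adjusted p = 0.0134).
For both genes the SSCTR arrays lay well below all others. The brightest Psmb8 probe read 8.33 and 8.53 in SSCTR, 9.31 and 9.21 in POF, and 9.18 and 9.48 in WT (log2 -0.83 ± 0.18; adjusted p = 0.0192). A dimmer Psmb8 probe went the other way, with 5.47 and 6.10 in SSCTR, 4.99 and 4.81 in POF, and 5.50 and 6.04 in WT (log2 0.88 ± 0.26; adjusted p = 0.0662), and the mean of both probes differed by 0.02. The direction of Psmb8 therefore rests on the choice of probe. Psmb10, the remaining immunoproteasome subunit, missed the threshold (log2 -0.63 ± 0.18; adjusted p = 0.0525), as did Tapbp (-0.37 ± 0.24) and Tap2 (-0.13 ± 0.21).

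Parp14, an ADP-ribosyltransferase, read 7.48 and 7.44 in SSCTR, 8.86 and 8.29 in POF, and 8.57 and 8.32 in WT. It was 2.15-fold lower in SSCTR than in POF (log2 -1.11 ± 0.22; adjusted p = 0.0122), while a second probe near background differed by 0.04. Trim30a, a negative regulator of innate signalling, read 4.25 and 4.24 in SSCTR, 4.79 and 5.03 in POF, and 4.49 and 4.44 in WT. It was above background on the POF arrays alone and was measured only through them, so it had to differ. Its levels show a difference of at least 1.04-fold. Isg15 and Usp18, the protease that removes Isg15 from proteins, differed by -0.13 ± 0.22 and -0.14 ± 0.25, and neither passed.

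**Figure D4:**
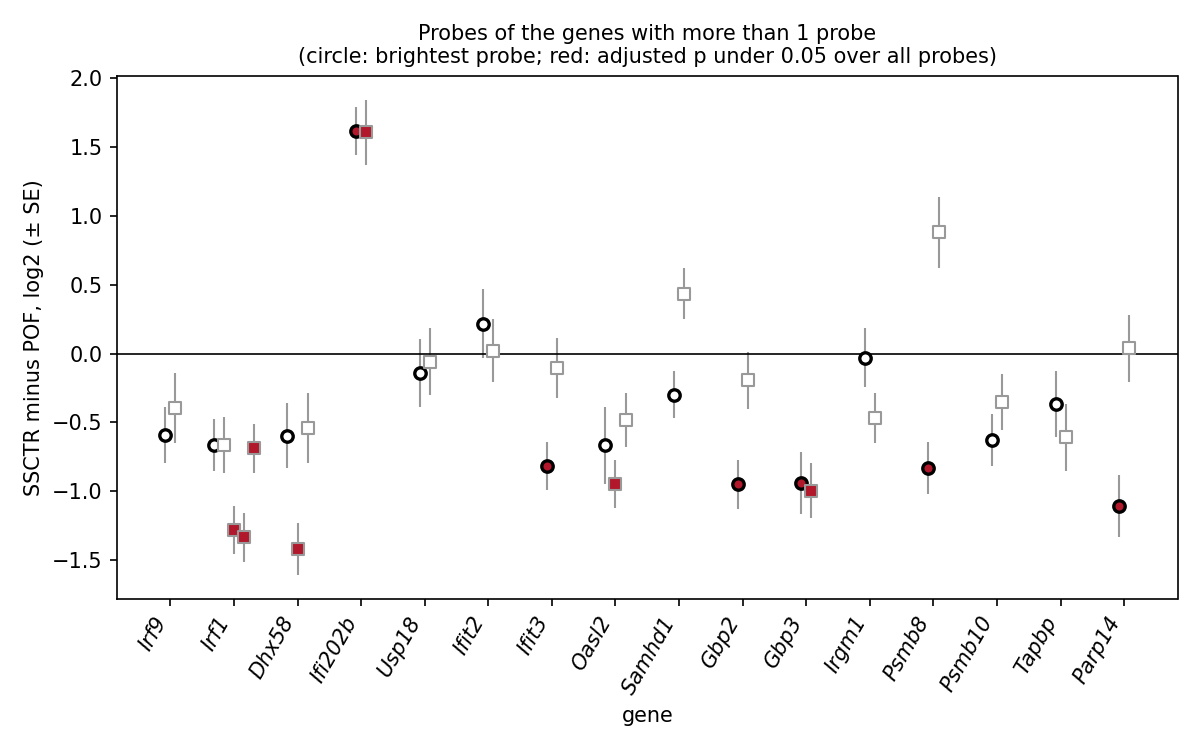
SSCTR minus POF on the log2 scale (± SE) for every probe of the members with more than 1 measured probe; circles mark the brightest probe and red an adjusted p under 0.05 over all probes. The 5 Irf1 probes all lie below 0, although its brightest probe has an adjusted p of 0.0561 in this fit of all probes. Of these 5, 1 was above background on the POF arrays alone, so it had to lie below 0 and gives no test. The Psmb8 probes lie on opposite sides of 0.

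Of the 11 members that were lower in SSCTR than in POF, 10 had a promoter window, and 8 of them held the ISRE-like or the GAS-like letters. Trim30a, whose call carries no support, is among the 8. Among the 21 that did not pass, 16 had a window, and 10 held one or the other. All 3 higher members had a match, 2 of them to the ISRE-like letters. The letters were thus present in members of every class of response, as in the promoters of Rsad2 and Bst2 shown above.

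Against wild type, recipients also had lower levels of several members. Tap1, Psmb8, Ifit3, Gbp2 and Ifi47 were lower in SSCTR, and no member was higher at the threshold in limma. At an unadjusted p under 0.05, 3 were higher (Ifi202b, Bst2 and Ifitm3) and 18 lower. At that cut 1172 of all 13872 features were higher and 1263 lower, so the share of members that was higher was near that of all features. The 5 calls are 14.3% of the 35 members, against 3.31% of all features, of which 1.5% were lower and 1.81% higher. The median of the members was -0.47 on the log2 scale, against -0.01 over all features, and 29 of the 35 members were negative. The arrays did not overlap for 4 members that were higher and 25 that were lower in SSCTR, against 22.6% and 25.3% of all features. With 1 array left out fewer members and fewer of all features passed, and none of the 5 calls held. The median of the members then ran from -0.5088 (without WT replicate 3) to -0.4203 (without WT replicate 2). The median was -0.24 with the authors' normalized values and -0.22 without background correction, against -0.47 above.

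Tap1 was 1.89-fold lower in SSCTR than in WT (log2 -0.92 ± 0.20; adjusted p = 0.0425), and Psmb8 on its brightest probe 1.87-fold lower (log2 -0.90 ± 0.18; adjusted p = 0.0358), while its dimmer probe differed by 0.01. Ifit3 was 1.83-fold lower (log2 -0.88 ± 0.17; adjusted p = 0.0273) and Gbp2 1.75-fold lower (log2 -0.81 ± 0.17; adjusted p = 0.0409). Ifi47, another immunity-related GTPase, read 4.56 and 4.61 in SSCTR, not above background on either, 5.0 and 4.89 in POF, and 5.40 and 5.26 in WT. It was at least 1.40-fold lower in SSCTR than in WT (adjusted p = 0.0488).
Parp14 (log2 -0.98 ± 0.22; adjusted p = 0.0508), Rsad2 (log2 -0.86 ± 0.20; adjusted p = 0.0584) and Isg15 (log2 -0.79 ± 0.22; adjusted p = 0.0961) had differences of like size and did not pass. Both Isg15 values in SSCTR, 6.99 and 6.97, lay inside the range of the POF arrays and below the WT arrays. Bst2 was at 0.88 ± 0.30 and did not pass (adjusted p = 0.169).

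On their brightest probes, 16 members passed in at least 1 comparison and 19 in none, Dhx58 and Oasl2 among the 19. Their log2 differences ran from -0.66 to 0.47 in POF against WT, from -0.72 to 0.43 in SSCTR against POF, and from -0.79 to 0.32 in SSCTR against WT. Ddx58, which encodes the RNA sensor RIG-I, read 4.85 and 5.30 in SSCTR, 5.42 and 6.17 in POF, and 5.46 and 5.59 in WT, and both SSCTR arrays lay below the others. Irf9 did likewise on its brightest probe, with 6.99 and 7.38 in SSCTR, 7.85 and 7.70 in POF, and 7.93 and 7.69 in WT. Its second probe overlapped between SSCTR and WT, with 7.13 and 6.52 in SSCTR, 7.29 and 7.16 in POF, and 6.59 and 7.12 in WT. Psmb10 read 9.35 and 9.28 in SSCTR, 10.09 and 9.80 in POF, and 9.72 and 9.86 in WT.
Others had a different order of groups. Stat2 was lowest in POF, with 5.60 and 5.51 in SSCTR, 4.85 and 5.41 in POF, and 5.87 and 5.62 in WT. Ifi35, an interferon-induced leucine zipper protein, was highest in POF, with 6.95 and 6.78 in SSCTR, 7.26 and 7.52 in POF, and 6.97 and 6.87 in WT. Zbp1, a sensor of left-handed nucleic acid helices, was lowest in WT, with 6.25 and 5.88 in SSCTR, 6.09 and 6.05 in POF, and 5.66 and 5.85 in WT.
Usp18 read 7.53 and 7.58 in SSCTR, 7.50 and 7.89 in POF, and 8.55 and 7.88 in WT, so that both SSCTR arrays lay below both WT arrays and POF overlapped each of the other groups. Ifit2, the direct neighbour of Ifit3, overlapped between all groups, with 5.66 and 5.83 in SSCTR, 5.86 and 5.19 in POF, and 5.90 and 5.51 in WT. Samhd1, which degrades the nucleotides that viruses need to copy DNA, had probes of opposite sign in SSCTR against POF, at -0.30 for the brighter and 0.43 for the dimmer.

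Counting arrays, both SSCTR arrays lay below the 4 others for 19 of 35 members, against 11.6% of all features, and above them for 3, against 12% of all features. Both POF arrays lay below the others for 4 members and above for 5, and both WT arrays below for 1 and above for 5. Trim30a, measured only through the POF arrays, is among the 19 and among the 5 with POF above. The corresponding shares of all features were 17.2% and 16.5% for POF, and 10.1% and 12.4% for WT. The 6 antigen-processing genes summed to 1230 and 1234 in SSCTR, 2126 and 1813 in POF, and 1757 and 2019 in WT, on the linear intensity scale. The 6 GTPases summed to 3885 and 4331 in SSCTR, 6418 and 6804 in POF, and 6393 and 6345 in WT. In both sums SSCTR was the lowest group. Psmb10 and Psmb8 together made up most of the first sum, and Gbp2 made up most of the second. Psmb10 did not pass in any comparison, and the direction of Psmb8 rests on the choice of probe. Gene by gene, all 6 antigen-processing genes and 5 of the 6 GTPases had negative log2 differences in SSCTR, against POF and against WT. The 8 effectors summed to 4339 and 4277 in SSCTR, 2416 and 2217 in POF, and 3490 and 3325 in WT, with SSCTR the highest. Ifitm3 made up most of this sum in SSCTR, so the order is that of 1 bright gene and not of the group. Of the 8, 4 were higher and 4 lower in SSCTR than in POF, with a median log2 difference of -0.04. Against WT, 3 were higher and 5 lower in SSCTR, with a median of -0.34. The 5 transcription factors summed to 914 and 958 in SSCTR, 1315 and 1524 in POF, and 1132 and 1166 in WT, highest in POF. Irf1 made up most of this sum. The other 4 had negative log2 differences in POF against WT, none of them past the threshold. The 5 sensors summed to 1212 and 1061 in SSCTR, 1286 and 1227 in POF, and 1404 and 1450 in WT, and Isg15 with Usp18 to 312 and 317 in SSCTR, 352 and 350 in POF, and 600 and 447 in WT. Both of these sums were highest in WT, and Eif2ak2 made up most of the sensor sum. The 3 remaining genes summed to 322 and 303 in SSCTR, 645 and 528 in POF, and 528 and 457 in WT, with SSCTR the lowest.

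Another 115 genes of the pathway were listed, of which 76 were measured. The interferons themselves were mostly unread: Ifnb1 and Ifng, encoding interferon beta and gamma, were above background on no array, and 4 of 14 listed interferon genes were measured (Ifna1, Ifnab, Ifne and Ifnz). None of these 4 passed in any comparison in limma, and 0 had an unadjusted p under 0.05. Ifnar1 was not above background on any array. Of the kinases, Jak2, which serves the interferon gamma receptor, was higher in POF than in WT (log2 0.61 ± 0.16; adjusted p = 0.0456) and lower in SSCTR than in POF (log2 -0.78 ± 0.16; adjusted p = 0.0156). Tyk2, which serves the type I receptor, was lower in POF than in WT (log2 -0.85 ± 0.16; adjusted p = 0.0109).

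In POF against WT, 11 of the 76 pathway genes were higher, where 6.98% of all features were, and 1, Tyk2, was lower, where 4.96% of all features were. Ifi205, a HIN-200 relative of Ifi202b, read 6.12 and 6.16 in POF against 4.31 and 4.50 in WT, at least 2.66-fold higher, but it was measured only through the POF arrays and its calls carry no support. H2-K1, an MHC class I heavy chain, was 2.83-fold higher, with 8.76 and 8.38 in POF against 7.10 and 7.03 in WT (adjusted p = 0.00176), and Irf5, a transcription factor of macrophage activation, 2.54-fold higher (log2 1.34 ± 0.20; adjusted p = 0.00362). Ifi207, a second HIN-200 relative, went the opposite way to Ifi202b and was 2.52-fold higher, with 7.38 and 7.31 in POF against 5.95 and 6.08 in WT. Cxcl10, an interferon-induced chemokine, was 1.77-fold higher (adjusted p = 0.0167). Ifnlr1, Cd274, Ptpn6, Trim25, Lgals3bp and Jak2 passed with smaller rises.

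In SSCTR against POF, 16 of the 76 were lower and none was higher in limma, with 2 higher and 33 lower at an unadjusted p under 0.05. Of all 13872 features, 1844 were higher and 1891 lower at that unadjusted cut. At the adjusted threshold 7.25% of all features were lower and 5.33% higher. Ifi205 is among the 16, with the same limit. Irf5 was 3.09-fold lower (log2 -1.63 ± 0.20; adjusted p = 0.0012). Nlrc5, the transactivator of MHC class I genes, read 4.98 and 4.66 in SSCTR, 6.34 and 6.43 in POF, and 6.18 and 5.82 in WT, and was at least 2.75-fold lower in SSCTR than in POF. Lgals3bp, a secreted glycoprotein, was 2.72-fold lower (log2 -1.44 ± 0.18; adjusted p = 0.00137), and Ifi207 was lower by a log2 difference of -1.38 ± 0.17 (adjusted p = 0.0012). The chemokines Cxcl10 (at least 2.39-fold) and Cxcl9 (2.04-fold), the checkpoint ligand Cd274 (2.16-fold) and the interferon lambda receptor Ifnlr1 (2.12-fold) were lower. B2m, the light chain of MHC class I, was 1.81-fold lower (log2 -0.85 ± 0.17; adjusted p = 0.0113). The heavy chains H2-K1 (log2 -1.10 ± 0.19), H2-D1 (log2 -0.94 ± 0.22) and H2-T23 (log2 -0.74 ± 0.17) were lower too. Irgm2, the direct neighbour of Igtp, was 1.98-fold lower (log2 -0.99 ± 0.17; adjusted p = 0.0072), and Uba7, which activates Isg15 for transfer, was 1.97-fold lower.

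In SSCTR against WT, 5 of the 76 were lower and none was higher in limma, with 0 higher and 16 lower at an unadjusted p under 0.05. Of all 13872 features, 1172 were higher and 1263 lower at that unadjusted cut. At the adjusted threshold 1.5% of all features were lower and 1.81% higher. H2-D1 read 10.25 and 10.55 in SSCTR, 11.05 and 11.63 in POF, and 11.64 and 11.66 in WT, and was 2.39-fold lower in SSCTR than in WT (adjusted p = 0.0224). Nlrc5 was at least 2.10-fold lower, Ifi27l2a 2.05-fold, Phf11d 1.89-fold and Irgm2 1.80-fold lower. The 3 comparisons share arrays, so a gene that is low or high in 1 group appears in 2 of them.

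Markers of other cell types differed between the groups as well. Of 20 macrophage and leukocyte markers 17 were measured, and their summed level was 8924 to 9451 in SSCTR, 18767 to 22332 in POF, and 9263 to 10428 in WT. In POF 6 of the 17 were higher than in WT, 7 were lower in SSCTR than in POF, and 1, Fcer1g, was lower in SSCTR than in WT. Over all features these shares were 6.98%, 7.25% and 1.5%. Ptprc and Itgam, which define leukocytes and myeloid cells, were above background on no array, and Cd68 had no named probe. The leukocyte sum was highest in POF, and SSCTR overlapped WT in it. Lyz1 and Lyz2 made up most of this sum in every group, and Csf1r and Adgre1 overlapped between all groups.

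The 7 measured of 16 lymphocyte markers summed to 341 to 352 in SSCTR, 465 to 508 in POF, and 400 to 517 in WT, so this sum was lowest in SSCTR. Against WT, 1 of the 7 was higher and 1 lower in POF, where 6.98% and 4.96% of all features were. In SSCTR 2 were lower than in POF (7.25% of all features) and 1 lower than in WT (1.5%), with none higher. The 3 measured of 10 neutrophil markers summed to 180 to 182 in SSCTR, 557 to 752 in POF, and 231 to 329 in WT. For plasmacytoid and other dendritic cells, 5 of 9 markers were measured, with sums of 2358 to 2494 in SSCTR, 2592 to 3101 in POF, and 2275 to 2335 in WT. Of the 5, Tcf4 and Zbtb46 were above background on all 6 arrays, and Spib, Flt3 and Clec9a on 2 to 3 only. Siglech and Ccr9, which define the plasmacytoid cells, were not measured. The part of these cell types in the differences of the members was not tested.

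Markers of the ovary itself also moved. All 10 oocyte markers were lower in POF than in WT and higher in SSCTR than in POF, and their sum was 5583 to 5734 in SSCTR, 2838 to 3016 in POF, and 8000 to 8346 in WT. The 10 measured of 12 markers of oviduct and surface epithelium summed to 1297 to 1618 in SSCTR, 7309 to 7707 in POF, and 1879 to 2042 in WT. The 7 measured of 10 granulosa cell markers differed less in their sum, with 19163 to 20505 in SSCTR, 18651 to 19725 in POF, and 20144 to 21713 in WT. Of these 7, SSCTR had 4 at a higher level than POF, and POF had 2 at a lower level than WT. The 10 endothelial markers summed to 3806 to 3911 in SSCTR, 4213 to 4454 in POF, and 3258 to 3354 in WT. The part of these tissue differences in the results above was not tested.

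**Figure D5:**
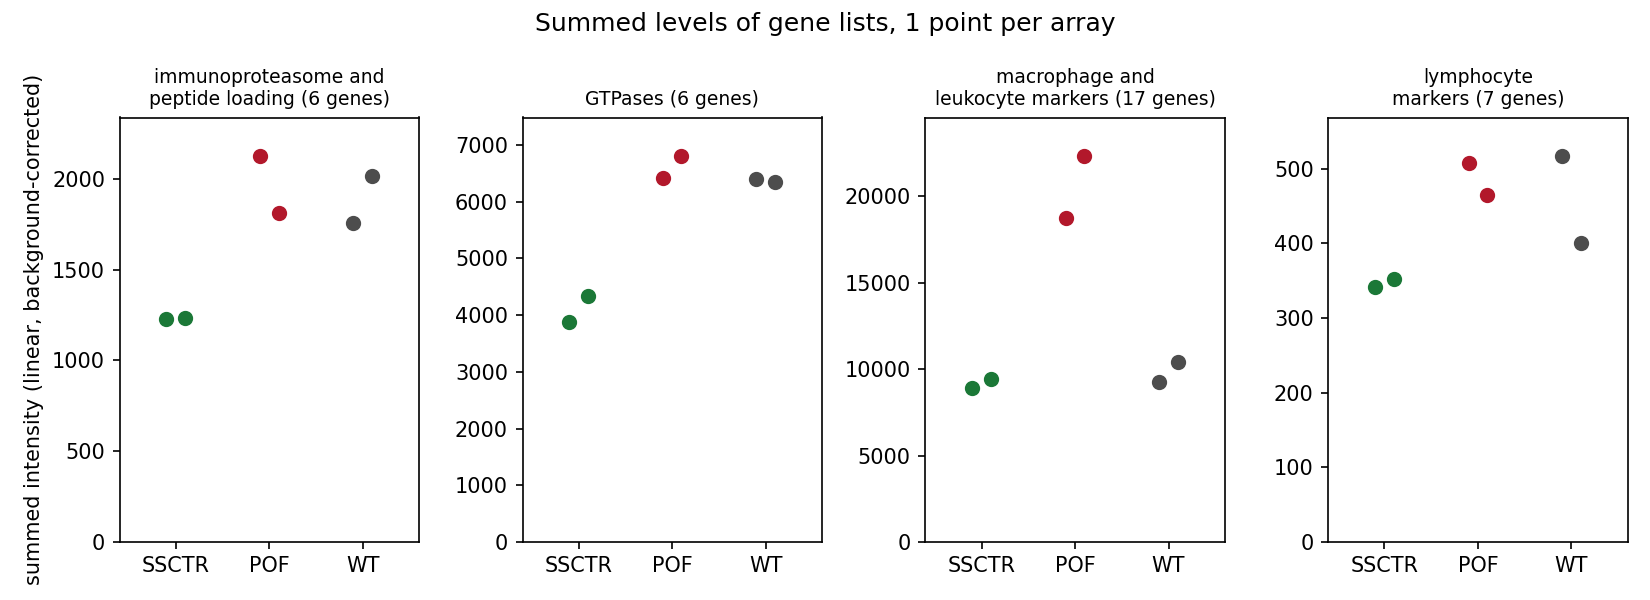
Summed linear intensity of the listed genes on each array (points), by group, each panel starting at 0. The sums of the leukocyte markers are highest in POF, between 18767 and 22332, while those of the antigen-processing genes are lowest in SSCTR, at 1230 and 1234. Lyz1 and Lyz2 make up most of the leukocyte sum, Psmb10 and Psmb8 most of the antigen-processing sum, and Gbp2 most of the GTPase sum.

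Ifi202b is known to differ in level between inbred mouse strains, and its pattern was set beside that of H2-Ea, an MHC class II gene that C57BL/6 mice are known not to transcribe; H2-Ea was chosen after its values were seen. H2-Ea read 7.26 and 7.33 in SSCTR, 4.33 and 4.29 in POF, not above background there, and 5.94 and 7.61 in WT. It was at least 4.14-fold lower in POF than in WT (adjusted p = 0.00794) and at least 5.96-fold higher in SSCTR than in POF (adjusted p = 0.0027). All samples are labelled C57BL/6, and the strain of the mice was not tested. Its bearing on other genes was not tested either. Among these, Psmb8, Psmb9, Tap1, Tap2 and Tapbp lie on chromosome 17, as do H2-K1, H2-D1 and H2-T23.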

How the data were processed

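Total RNA was hybridised as biotinylated cRNA, per the labels' protocols; GenomeStudio is the tool that the submitters' processing notes name, and its version, the genome build and the chip are not given in the sources used here. The authors deposited a table with an intensity and a detection p-value for each of 9 columns, per the file headers. Although named non-normalized, its sorted intensities differ by at most 0.541% between the 6 arrays used, so they were already brought to 1 distribution. The detection p-value columns deposited for replicate 1 reach above 1 and were read as a score. Replicate 1 of each group equals the average of the other two scaled by one of a few constants (17 in SSCTR, 9 in POF, 6 in WT), and was left out. A second deposited table holds the authors' normalized intensity.

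The 6 arrays were background-corrected and normalized in R 4.3.3 with limma 3.58.1, function neqc (normexp with an offset of 16, quantile normalization, log2). Probes entered with a detection p under 0.05 on at least 2 of 6 arrays (19394 of 45281; 16040 to 18041 were above background per array), and the brightest probe stood for a gene, giving 13872 features. Of the probes, 34885 carried 1 gene symbol, 18 several and 10378 none. The 3 groups were fitted in 1 limma model (prior degrees of freedom 5.64, residual 3) without a block, and p-values were adjusted by Benjamini-Hochberg over all features. The number of arrays limits the precision. Where at least 1 array of the dimmer group did not detect a gene, its fold is a bound, written "at least": the brighter group's mean against the higher of the lowest detected signal and the probe's own value on each array of the dimmer group. Summed levels add the linear intensities of the brightest probe of each gene in a list, so the brightest genes weigh most.

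Same-numbered arrays did not deviate together across groups (r = -0.00259 for SSCTR and POF, -0.0171 for SSCTR and WT, and -0.0628 for POF and WT, across 13872 features, which share their arrays), and the numbers were not taken to pair them. The script was tested on simulated data. Every member past the threshold is given with its array values, with the brightest member of each role group as an example of the others; of other pathway genes those past the threshold are named, beginning with the 5 largest rises and falls. The members, the lists and the tests were chosen with earlier results of these data known. Alternatives changed the background correction, offset, filter, probe rule, prior, block, columns and arrays used.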

Additional observations from a re-analysis of the deposited data

How the results depend on the processing

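The 2 arrays per group limit all calls. Rsad2, Ifi202b and Ifitm3 passed in every setting in which they were fitted, both in POF against WT and in SSCTR against POF. Of 59 values of the called members in POF against WT under alternatives, 55 kept direction and side of the threshold and 4 no longer passed; of 208 in SSCTR against POF, 153 did, 54 no longer passed and 1 reversed; and of 74 in SSCTR against WT, 28 did and 46 no longer passed. The 1 that reversed is Psmb8 in SSCTR against POF, at 0.0248 with the mean of its probes, which lie on opposite sides of 0. Igtp, Irf1 and Trim30a in SSCTR against POF, and all 5 called members in SSCTR against WT, passed in none of the 6 fits that leave out 1 array. The cause of the other changes was not tested.

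With all 9 columns, which count computed values as replicates, more members passed, and so did more of all features. The called members were 10 of 35 in POF against WT, against 34.9% of all features. They were 22 in SSCTR against POF, against 35.3%, and 23 in SSCTR against WT, against 21.6%. Leaving out 1 array gave as many calls or fewer in POF against WT, and fewer in both SSCTR comparisons. Fewer of all features passed in these fits too. The lone array of a group is then taken to vary like the others. The next counts have the share of all features in brackets. In SSCTR against WT, the 5 calls became 9 with an offset of 50 (5.53%) and 9 with the authors' normalized values (6.16%). They became 10 with an intensity trend in the prior (5.89%) and 3 with no detection filter (1.13%). With the mean of the gene's probes they were 3 (3.14%). With the replicate block they were 1 (2.46%), and 4 in POF against WT (10.4%) and 11 in SSCTR against POF (11.1%). The replicate numbers do not pair the arrays.

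The median log2 difference of the members in POF against WT was -0.0045 with all 9 columns and -0.0038 with a stricter detection filter (p under 0.01 on every array); with 1 array left out it ran from -0.0466 to 0.0676, positive without POF replicate 3 (0.0376) and without WT replicate 2 (0.0676), so it has no settled sign. In SSCTR against POF it was -0.1694 without background correction, -0.2585 with an offset of 50, -0.186 with the authors' values, -0.5585 with the stricter detection, -0.2985 with no filter, -0.4591 with the mean of probes, and -0.4987 to -0.3439 with 1 array left out. In SSCTR against WT the same settings gave -0.2179, -0.358, -0.2445, -0.5418, -0.3765 and -0.3885, and -0.5088 to -0.4203 with 1 array left out.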
